A study of Mus musculus with 21 samples.

Results

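The genes described here are the nuclear genes of respiratory complex I, taken as every row of the count table whose symbol begins with Nduf. There were 45 such rows among 24054, and all 45 were among the 14135 genes that passed the filter on low counts. They comprise 38 rows for subunits, Ndufa4 and its relative Ndufa4l2 included, and 7 rows for assembly factors, whose symbols begin with Ndufaf and which are described apart. The RNA came from left ventricular myocardium of C57BL/6J mice, with 1 library for each of 21 ear-tagged animals. The 5 sham mice had mock surgery and no drug, and the 5 TAC mice had transverse aortic constriction, a banding of the aorta that overloads the left ventricle, and no drug. A further 5 mice had TAC and sildenafil, an inhibitor of the phosphodiesterase PDE5A, and 6 had TAC and PF-04449613, an inhibitor of PDE9A. Both enzymes degrade cyclic GMP, and both drugs were given for 4 weeks from 1 week after surgery. For age, dose and vehicle, no value is given in the sources used here.

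Complex I sits in the inner mitochondrial membrane, takes electrons from NADH, passes them along a chain of iron-sulphur clusters to ubiquinone, and uses the energy to pump protons. It is L-shaped: a peripheral arm reaches into the matrix and holds the NADH module, where NADH is oxidised, and the Q module, where ubiquinone is reduced, while a membrane arm holds the pumping subunits. Core subunits do the chemistry, accessory subunits surround them, and assembly factors help to build the complex without staying in it. The heart is packed with mitochondria and relies on this chain for most of its ATP. The core subunits of the membrane arm are encoded by mitochondrial DNA and were not analysed here, nor were Ndufb1 and Ndufaf8.

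The depth was 22.7 to 41.0 M counts per library, and 45S ribosomal RNA took 0.192% to 0.416% of them, with the highest values in PF-04449613 libraries 4 (0.416%) and 1 (0.326%). Levels below are TMM-scaled counts per M (CPM). The 12 cardiomyocyte markers were all detected, with a summed level of 129375 to 223049 CPM across libraries, as the tissue label says, while the atrial list summed to at most 3.02 CPM in sham, TAC and sildenafil libraries and reached 27.5 CPM in PF-04449613 library 1. In TAC against sham, 5 of the 12 cardiomyocyte markers fell and none rose, 8 of 9 fibroblast and 4 of 5 activated fibroblast markers rose, 2 of 6 smooth muscle and pericyte markers rose, all 4 B cell markers rose at a summed level of at most 5.02 CPM in TAC, and none of 6 endothelial and 5 tested macrophage markers was called in either direction. Of the brown adipocyte markers, whose cells are also rich in mitochondria, Ucp1 and Elovl3 did not pass the filter on low counts. Of the 3 tested, Dio2, which activates thyroid hormone, rose by 4.27 on the log2 scale (edgeR adjusted p = 0.00202), Cidea, a lipid droplet protein, rose by 0.30 (0.0417), and Ppara, which muscle and liver also express, fell by 0.57 (0.0135). The part of these markers in the results below was not tested. In bulk tissue, fewer cells of a type and less RNA per cell cannot be told apart.

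Transcripts of most complex I subunits were lower in TAC hearts than in sham hearts. Of the 45 members, 33 fell and none rose in TAC against sham (edgeR, adjusted p under 0.05), where 13.0% of all genes tested were called lower. Among the 36 subunits of the complex proper, 31 fell, all 36 had fold changes below 0, and the median log2 fold change was -0.41, with a range from -0.55 to -0.12. The median over all genes tested was -0.0013. For 18 of these subunits and for 1 assembly factor, every TAC library lay below every sham library, which held for 8.00% of all genes. Ndufa4 also fell and Ndufa4l2 was not called, while 1 of 7 assembly factors fell.

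**Figure D1:**
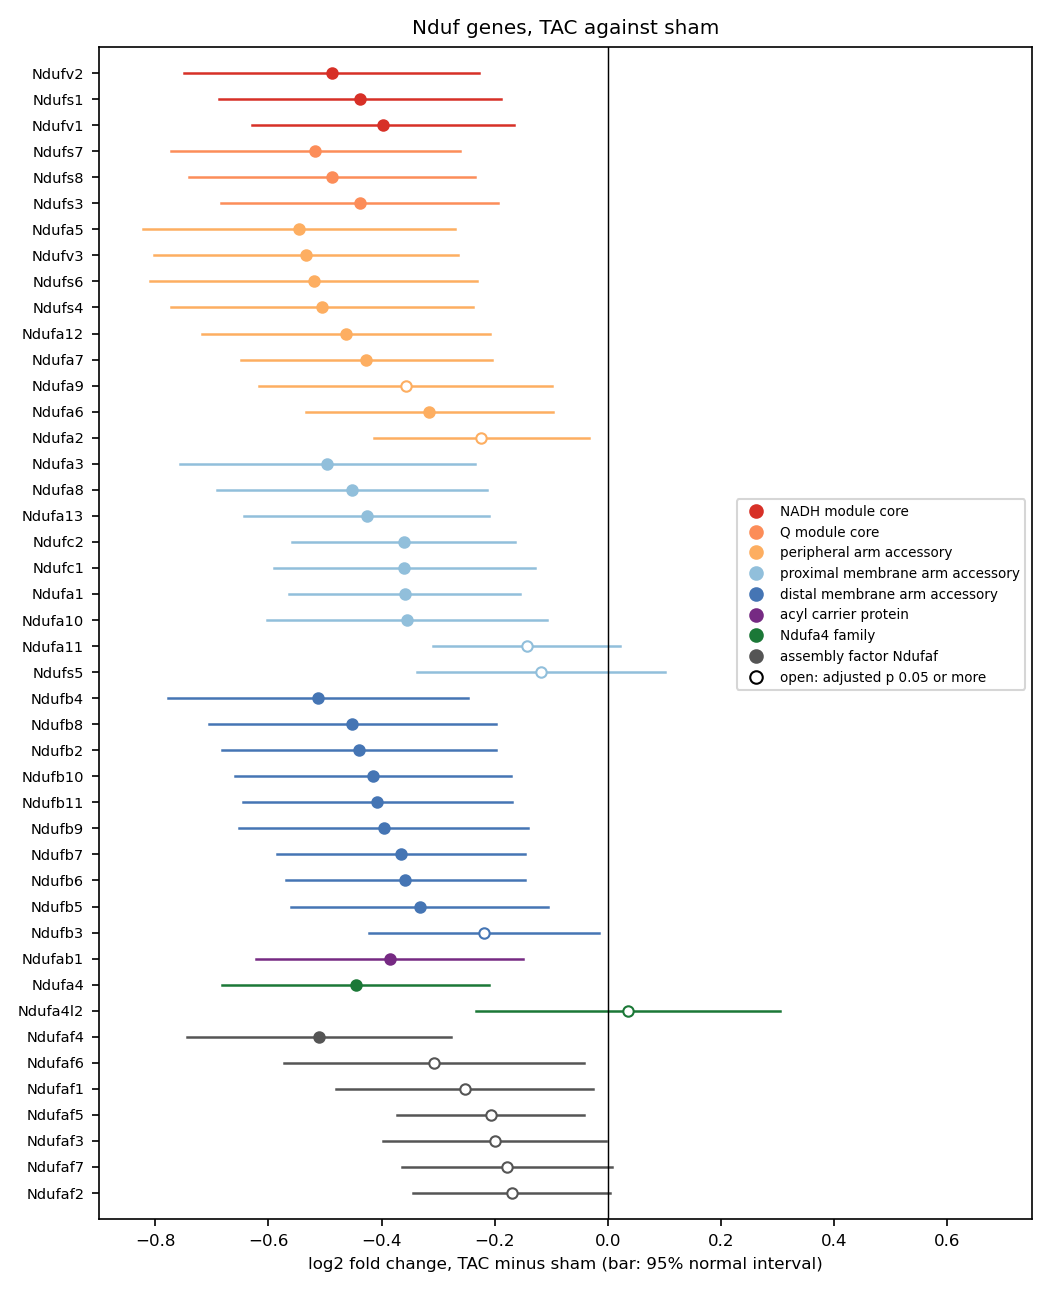
Log2 fold change of Nduf genes in TAC against sham, grouped by role, with bars of 1.96 standard errors each way. Filled points have an adjusted p under 0.05; all points except that of Ndufa4l2 lie left of 0, and the assembly factors at the bottom, apart from Ndufaf4, lie closer to 0 than most subunits.

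Because so many members moved together, their promoters were read for the sites of transcription factors known to act on respiratory genes. RefSeq promoters (GRCm38.p6, the 250 bases before the start site) were matched for 39 member genes, with 41 promoters in all. The letters searched on both strands were GCGCATGCG for NRF1, TCAAGGTCA for the oestrogen-related receptors, CCGGAAGT for GABP and other ETS factors, and AAGATGGC for YY1. The NRF1 letters were found in 3 of the 41 member promoters (7.32%) and in 1.45% of all 32851 promoters. The other letters were found in 0 member promoters, and in 0.387%, 2.88% and 1.56% of all promoters in the order given. With rates this low, few or no matches would be found in 41 promoters, so 0 does not show that these genes lack such sites. Only exact letters before the start site were searched. The first 3 sequences below are those with the NRF1 letters, in capitals, and the last is a core subunit that fell and holds none of the letters searched. In Ndufaf4 and Ndufa11 the match is read on both strands, 1 base apart, so the capitals run over both. The windows are chr2:36049339-36049588 (minus strand) for Ndufa8, chr4:24897833-24898082 (plus) for Ndufaf4, chr17:56717512-56717761 (plus) for Ndufa11 and chr10:80249199-80249448 (plus) for Ndufs7. They are placed by the RefSeq start, and the GENCODE gene spans differ: Ndufs7 starts there at 80249121, so its window lies wholly within that span, and Ndufa8 ends at 36049406, so its window lies partly within it.
Ndufa8: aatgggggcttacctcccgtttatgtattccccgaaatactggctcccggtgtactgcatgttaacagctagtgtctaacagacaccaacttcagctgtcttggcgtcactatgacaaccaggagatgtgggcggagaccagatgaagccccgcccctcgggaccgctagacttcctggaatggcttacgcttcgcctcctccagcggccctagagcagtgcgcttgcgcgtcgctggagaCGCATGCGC
Ndufaf4: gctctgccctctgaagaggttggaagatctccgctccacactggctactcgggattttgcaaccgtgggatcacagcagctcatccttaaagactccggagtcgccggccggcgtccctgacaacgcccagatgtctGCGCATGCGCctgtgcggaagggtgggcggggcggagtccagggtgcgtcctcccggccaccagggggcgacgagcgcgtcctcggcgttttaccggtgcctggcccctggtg
Ndufa11: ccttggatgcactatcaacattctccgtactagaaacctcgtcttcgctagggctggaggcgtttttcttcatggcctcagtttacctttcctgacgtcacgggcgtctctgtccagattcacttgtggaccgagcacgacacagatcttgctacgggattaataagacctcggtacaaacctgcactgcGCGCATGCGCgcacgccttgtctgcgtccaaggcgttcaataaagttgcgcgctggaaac
Ndufs7: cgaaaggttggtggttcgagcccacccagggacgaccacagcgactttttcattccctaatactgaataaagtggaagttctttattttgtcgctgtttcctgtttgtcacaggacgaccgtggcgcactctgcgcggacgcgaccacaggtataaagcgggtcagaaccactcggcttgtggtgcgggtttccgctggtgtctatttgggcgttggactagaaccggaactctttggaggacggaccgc
Ndufa8 and Ndufaf4 fell in TAC and Ndufa11 was not called. With 3 promoters, no relation between the letters and the calls can be read. A match describes the letters in this window and is not evidence of binding.

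The NADH module core consists of Ndufv1, which binds NADH and its flavin, and the iron-sulphur proteins Ndufv2 and Ndufs1. All 3 fell. Ndufv1 (chr19:4007384-4012806, minus strand, GRCm38, as for all positions below) stood at 848, 764, 804, 829 and 756 CPM in the 5 sham libraries and at 563, 782, 528, 499 and 667 CPM in the 5 TAC libraries. TAC library 2 lay within the sham range and the other 4 lay below it. Its log2 fold change was -0.40 (SE 0.118, edgeR adjusted p = 0.0207). Ndufv2 (chr17:66078638-66101559, minus) had 491, 415, 493, 486 and 399 CPM in sham and 326, 373, 286, 272 and 370.3 CPM in TAC. No TAC library reached the lowest sham library, and the log2 fold change was -0.49 (SE 0.133, edgeR adjusted p = 0.0137). Ndufs1 (chr1:63143596-63176833, minus) had 1025, 922, 945, 994 and 876 CPM in sham and 660.0, 907, 604, 541 and 803 CPM in TAC. Here too TAC library 2 overlapped the sham range, and the log2 fold change was -0.44 (SE 0.127, edgeR adjusted p = 0.0186).

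The Q module core carries the last iron-sulphur clusters and the ubiquinone site. Ndufs3, Ndufs7 and Ndufs8, which belong to it, all fell. Ndufs7 (chr10:80249121-80256794, plus), an iron-sulphur subunit at the ubiquinone site, had 331, 288, 313, 332 and 267 CPM in sham and 221, 247, 188, 175 and 239 CPM in TAC. Every TAC library was below every sham library, and the log2 fold change of -0.52 (SE 0.130) had the lowest adjusted p of any subunit (edgeR, 0.00973). Ndufs8 (chr19:3908863-3912774, minus), another iron-sulphur subunit, had 232, 197, 233, 237 and 192 CPM in sham and 153, 175, 143, 128 and 179.9 CPM in TAC. The groups did not overlap, and the log2 fold change was -0.49 (SE 0.129, edgeR adjusted p = 0.0120). Ndufs3 (chr2:90894634-90904827, minus), a structural part of the module, had 375, 331, 362, 389 and 330.1 CPM in sham and 276, 297, 229.8, 213 and 303 CPM in TAC. These too were separate, with a log2 fold change of -0.44 (SE 0.125, edgeR adjusted p = 0.0169).

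Calls of some core subunits rested on single libraries. Without TAC library 3 the edgeR adjusted p was 0.0621 for Ndufs1, 0.0565 for Ndufs3 and 0.0686 for Ndufv1, and without TAC library 4 it was 0.0605, 0.0557 and 0.0677. Ndufv1 also lost its call without TAC library 1 (0.0531). Ndufv2, Ndufs7 and Ndufs8 kept theirs whichever single library was left out, with adjusted p values of at most 0.0470, 0.0347 and 0.0407.

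Accessory subunits of the peripheral arm fell in 7 of 9 cases, with a median log2 fold change of -0.46 over the 9. The largest change of any member was in Ndufa5 (chr6:24518666-24528013, minus), which had 308, 281, 289.9, 296 and 248 CPM in sham and 191, 239, 170.0, 152 and 224 CPM in TAC. The groups were separate and TAC reached 68.5% of the sham mean, a log2 fold change of -0.55 (SE 0.141, edgeR adjusted p = 0.0109). Ndufv3 (chr17:31520115-31531331, plus), which sits on the NADH module, had 280.0, 248, 293, 300.1 and 250.3 CPM in sham and 184, 227, 168, 154 and 215 CPM in TAC. It too showed no overlap, with a log2 fold change of -0.53 (SE 0.137, edgeR adjusted p = 0.0107). Ndufs6, which carries zinc, and Ndufs4, whose loss causes Leigh-like disease in mice, fell by 0.52 and 0.51 on the log2 scale, and Ndufa12, Ndufa7 and Ndufa6 by 0.46, 0.43 and 0.32. Ndufa9, at -0.36, narrowly missed the threshold (edgeR adjusted p = 0.0524), and Ndufa2 was not called at -0.22 (0.0916).

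Accessory subunits of the membrane arm fell in 7 of 9 cases on the proximal side, next to the peripheral arm, and in 9 of 10 on the distal side. Ndufa13 (chr8:69894180-69902558, minus), also known as GRIM-19 and spanning the junction of the arms, had 464, 418, 441, 434 and 388 CPM in sham and 306, 387, 276, 263 and 364 CPM in TAC. TAC library 2 came within 1 CPM of the lowest sham library without reaching it, and the log2 fold change was -0.43 (SE 0.111, edgeR adjusted p = 0.0113). On the proximal side Ndufa3, Ndufa8, Ndufc2, Ndufc1, Ndufa1 and Ndufa10 fell by 0.50, 0.45, 0.36, 0.36, 0.36 and 0.35 on the log2 scale. On the distal side, from Ndufb4 (-0.51), Ndufb8 (-0.45) and Ndufb2 (-0.44) to Ndufb5 (-0.33), 9 members fell and Ndufb3 was not called (-0.22, edgeR adjusted p = 0.121). Ndufab1, the mitochondrial acyl carrier protein, which is present in both arms and also serves fatty acid synthesis, fell by 0.39 on the log2 scale. Not all of the accessory subunits' calls held over the 18 other settings, which include leaving out each library: Ndufa6 and Ndufa10 were called lower in 8 of them, Ndufb5 in 9, Ndufb9 and Ndufc1 in 12 and Ndufab1 in 13, while Ndufa3 and Ndufa8 were called in all 18.

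A pair of membrane-arm subunits stood apart and were chosen for description after their values were seen. Ndufs5 (chr4:123712710-123718202, minus), which faces the intermembrane space, had 96.7, 79.3, 79.2, 86.5 and 81.0 CPM in sham and 75.5, 82.8, 74.9, 73.7 and 82.6 CPM in TAC. TAC libraries 2 and 5 lay within the sham range and the other 3 just below it, and the log2 fold change was -0.12 (SE 0.112, edgeR adjusted p = 0.452), with an interval from -0.34 to 0.10. Ndufa11 (chr17:56717767-56722141, plus), which lies at the contact with complex III in supercomplexes, had 217, 183, 208, 219 and 179.9 CPM in sham and 182, 173, 181, 184 and 191 CPM in TAC. Of the TAC libraries 4 lay inside the sham range and 1 just under it, and the log2 fold change was -0.14 (SE 0.0847, edgeR adjusted p = 0.212) and an interval from -0.31 to 0.02. Pseudogenes or copies of Ndufs5 and Ndufa11 are annotated in RefSeq, as they are for Ndufa12, Ndufab1, Ndufs6 and Ndufb4, so the split of reads between copies is uncertain for these genes. Exons of 17 members overlap a gene on the other strand and those of Ndufb2, Ndufb8 and Ndufb9 a predicted gene on the same strand. The kit marks strand but no strand setting of the counting is stated, so reads of those partners may be included.

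**Figure D2:**
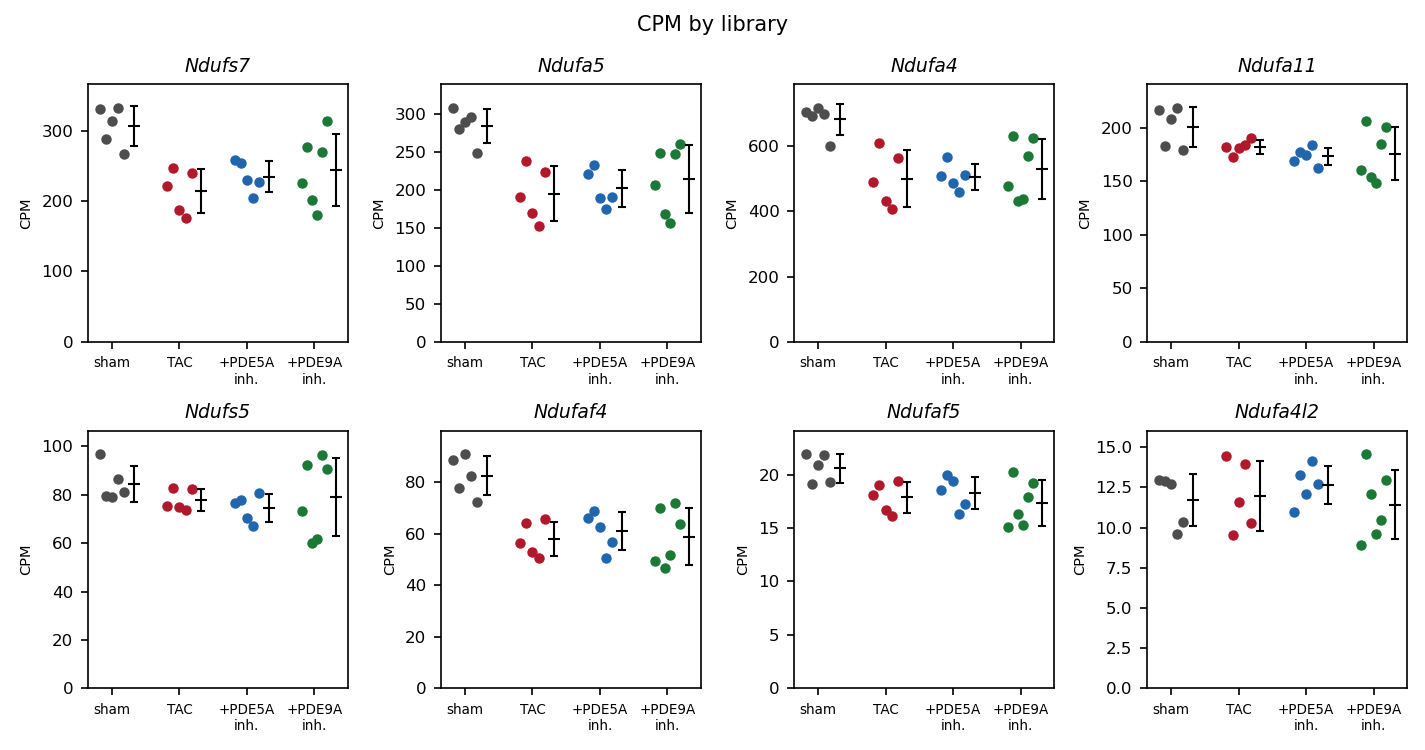
CPM of 8 Nduf genes in every library by group, with black marks for the group mean and SD; each axis starts at 0. For Ndufs7, Ndufa5 and Ndufaf4 all 5 TAC points lie below all 5 sham points, while Ndufa11, Ndufs5 and Ndufa4l2 overlap.

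Ndufa4 was first described as a complex I subunit and is now placed in complex IV, cytochrome c oxidase. It fell with the others. Its levels (chr6:11900292-11907497, minus) were 704, 691, 717, 698 and 599.9 CPM in sham and 489.9, 611, 432, 408 and 563 CPM in TAC. TAC library 2 exceeded sham library 5 and the other TAC libraries were below all sham libraries, with a log2 fold change of -0.45 (SE 0.120, edgeR adjusted p = 0.0133). Ndufa4l2 (chr10:127514967-127517154, plus), a relative of Ndufa4 known to be induced by hypoxia, was scarce, at 13.0, 12.9, 12.7, 9.61 and 10.3 CPM in sham and 14.5, 9.57, 11.6, 14.0 and 10.3 CPM in TAC. The groups overlapped widely, and it was the sole member above 0, at 0.04 (SE 0.137, edgeR adjusted p = 0.872), with a sign that changed when single libraries were left out. Ndufa4 exceeded Ndufa4l2 by 53.6 to 72.7 times in sham libraries and by 29.2 to 63.9 times in TAC libraries, in CPM.

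The 7 assembly factors had a median log2 fold change of -0.21, all with values below 0. Of the 7, 1 was called (14.3%), which is close to the 13.0% of all genes called lower. Ndufaf4 (chr4:24898083-24905001, plus), which acts with Ndufaf3 in building the Q module, had 88.8, 78.0, 90.8, 82.3 and 72.5 CPM in sham and 56.3, 64.0, 52.9, 50.6 and 65.6 CPM in TAC. The groups were separate, and the log2 fold change of -0.51 (SE 0.119) had the lowest adjusted p of all 45 members (edgeR, 0.00715). It was called lower under all 18 alternative settings tried. Ndufaf5 (chr2:140170649-140203689, plus), an enzyme that hydroxylates Ndufs7, had 21.9, 19.1, 20.9, 21.9 and 19.3 CPM in sham and 18.1, 19.0, 16.7, 16.1 and 19.4 CPM in TAC. TAC library 5 lay inside the sham range, and the log2 fold change was -0.21 (SE 0.0846, edgeR adjusted p = 0.0745). Ndufaf6 (-0.31), Ndufaf1 (-0.25), Ndufaf3 (-0.20), Ndufaf7, a methyltransferase (-0.18), and Ndufaf2 (-0.17) were not called, with edgeR adjusted p values between 0.0962 and 0.168. Assembly factors without an Nduf symbol were called lower in 3 of 10 cases, where 13.0% of all genes were, with a median of -0.23. These were Aifm1 (-0.40), Tmem70 (-0.38) and Ecsit (-0.30), of which Ecsit works with Ndufaf1 on the membrane arm.

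The other complexes of oxidative phosphorylation gave values like those of the complex I subunits. In complexes II to V, 39 of 43 genes fell, with a median of -0.42: 4 of 4 in complex II, 9 of 9 in complex III, 11 of 14 in complex IV and 15 of 16 in complex V. Among 12 regulators of mitochondrial genes 5 fell, with a median of -0.28 over the list. The lowest p values among them belonged to the coactivators Ppargc1b (-0.43, SE 0.0961) and Ppargc1a (-0.61, SE 0.164) and the fatty acid receptor Ppara (-0.57, SE 0.155), with edgeR adjusted p values of 0.00556, 0.0131 and 0.0135. Nrf1 itself was not called (-0.11, edgeR adjusted p = 0.265).

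The subunits varied together from animal to animal. Summed over the 36 subunits, sham libraries 1 to 5 held 12747, 11321, 12315, 12594 and 10775 CPM. The TAC libraries held 8791, 10782, 7921, 7371 and 10101 CPM, so that TAC library 2 just exceeded the lowest sham library and the other 4 lay below it. TAC library 4 was the lowest of its group for 35 of the 36 subunits and TAC library 2 the highest for 26. TAC library 4 had a median subunit level at -0.71 from the sham mean on the log2 scale, and TAC library 2 at -0.18. Without TAC library 4, 12 of the 38 subunit rows were called in TAC against sham, and 13 without TAC library 3, against 32 with all libraries, while all 36 subunits stayed below 0 in both cases. The share of all genes called lower dropped too, to 5.95% and 6.31%.

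**Figure D3:**
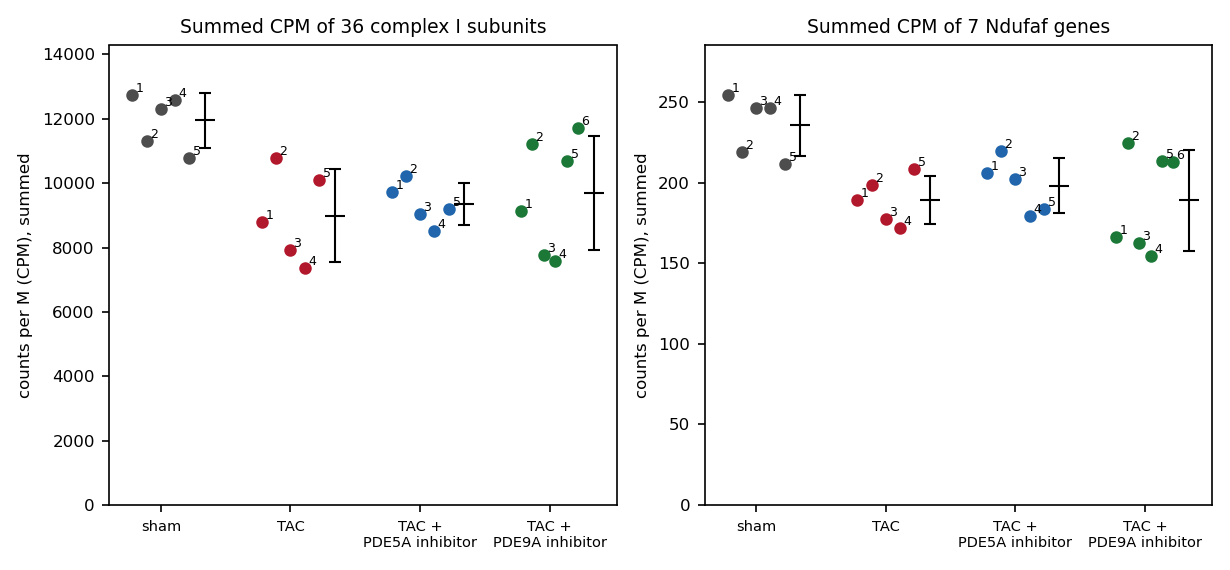
Summed CPM of the 36 complex I subunits (left) and of the 7 Ndufaf genes (right) in every library, numbered within its group, with the group mean and SD in black. The subunit sums of sham libraries lie between 10775 and 12747 CPM, TAC libraries reach down to 7371 CPM, and the PF-04449613 group spans 7592 to 11698 CPM.

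The cardiomyocyte markers moved with these sums between sham and TAC. Their summed level was 189665 to 223049 CPM in sham and 129375 to 190257 CPM in TAC, with the lowest value in TAC library 4 and the highest TAC value in TAC library 2. Per 100 CPM of cardiomyocyte markers, the subunits made up 5.45 to 6.49 CPM in sham libraries and 4.81 to 5.89 CPM in TAC libraries, which overlap. With sildenafil the markers summed to 145007 to 184109 CPM and the ratio was 5.00 to 6.52. Library 5 had the highest marker sum of that group and library 2 the highest subunit sum, so the order of the libraries differed between the sums. With PF-04449613 the ratio was 4.48 to 5.97, and in 5 of the 6 libraries, all but library 2, it lay below the lowest sham value. The largest terms of the marker sum were Ttn, with a mean of 98889 CPM in sham, and Myh6, with 45267 CPM. Of the 12 markers 5 fell in TAC against sham, Myh6 among them (-0.72), while Ttn was not called (-0.14). The ratio therefore depends heavily on these genes and carries no test. The part of cardiomyocyte content in the subunit result was not tested. Summed fibroblast markers went the other way, from 2614 to 3289 CPM in sham and from 4304 to 6691 CPM in TAC, and their part was not tested either.

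The proportions among subunits varied less across TAC libraries than their levels did. Each subunit was expressed as a share of the summed CPM of the 36, so a gain for some entails a loss for others. Across TAC libraries the median coefficient of variation was 15.5% for CPM and 3.47% for the share, and 34 of 36 subunits had the smaller value for the share. Ndufs5 and Ndufa11 were the exceptions to that count. Dividing by the sum removes variation that the 36 have in common, so smaller values follow from the subunits varying together. No other gene list was treated in this way. For 4 subunits all TAC shares lay above all sham shares and for 5 all lay below, given here as a description. Ndufs5 went from 0.643% to 0.759% of the sum in sham to 0.768% to 1.00% in TAC, and Ndufa2 from 1.43% to 1.52% to between 1.61% and 1.77%. Ndufa6 and Ndufb5 were the other subunits with higher shares. Ndufa5, at 2.30% to 2.48% in sham and 2.06% to 2.21% in TAC, was lower, as were Ndufv3, Ndufb4, Ndufa3 and Ndufb8.

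**Figure D4:**
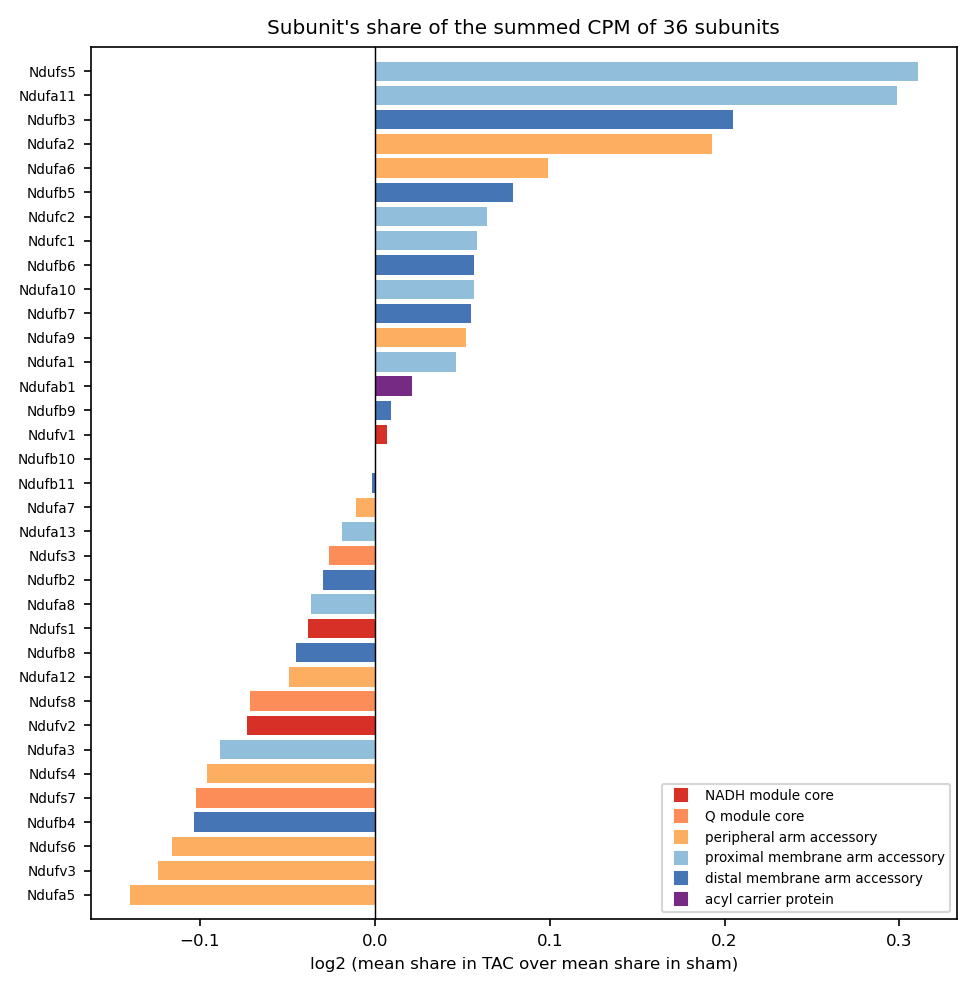
Change in the shares that subunits take of the summed CPM of 36 subunits, as the log2 of the mean TAC share over the mean sham share, coloured by role. Ndufs5 (0.31) and Ndufa11 (0.30) lie at the upper end and Ndufa5 (-0.14) at the lower end.

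Levels can be compared between genes only per length, which was done for 42 members as CPM per kb of the principal transcript. In sham, Ndufa4 was the highest at 1118 ± 76.9 CPM per kb (SD, n = 5), followed by Ndufb8 at 869.6 ± 59.5 and Ndufb9 at 808 ± 62.4 CPM per kb. The sham libraries of Ndufb8 and Ndufb9 overlapped. Ndufs4 was the lowest subunit at 119 ± 9.63 CPM per kb, and the highest of the 33 complex I subunits was 7.30 times the lowest. The 7 assembly factors ranged from 11.9 CPM per kb for Ndufaf6 to 36.9 for Ndufaf1, with a median of 17.8 against 342 for the subunits. Of 41 neighbouring pairs in this order, 34 overlapped in their sham libraries. From sham to TAC 39 of 42 members kept their place to within 3, and the farthest move was that of Ndufa11, from place 13 to place 7.

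Neither inhibitor was accompanied by a called change in any member when compared with TAC. With sildenafil 0 of 45 members were called (edgeR; 0.0141% of all genes were), 0 had an unadjusted p under 0.05, where 731 of all 14135 genes did, and DESeq2 and limma-voom called 0. The median log2 fold change over the 45 was 0.06, with 39 members above 0 and a range from -0.07 to 0.16. Of all 14135 genes, 6919 were above 0. Subunits varied together by library, so the 39 members are not separate readings. Ndufs3 had the lowest p, with 305, 329, 291, 267 and 286 CPM in sildenafil libraries 1 to 5, a log2 fold change of 0.16 (SE 0.125, edgeR adjusted p = 0.962) and an interval from -0.08 to 0.41. The 5 values lay among or above those of TAC and all were below the lowest sham value of 330.1 CPM. Left without TAC library 4, the median over the 38 subunit rows changed sign, from 0.05 to -0.01.

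With PF-04449613 against TAC, again 0 of 45 members were called (edgeR; 0.00707% of all genes), 0 had an unadjusted p under 0.05, where 2061 of the 14135 genes did, and DESeq2 and limma-voom called 0. The median was 0.09, with 38 members above 0, where 7223 of the 14135 genes were. Here too the members are not separate readings. Ndufs7 had the lowest p, at 179 CPM in the lowest of the 6 libraries, a median of 248 and 314 CPM in the highest. Its log2 fold change was 0.19 (SE 0.124, edgeR adjusted p = 0.485), with an interval from -0.05 to 0.43. The libraries spanned nearly the whole range of TAC and sham together. Assembly factors had a median of -0.02 in this comparison, and 0.07 in sildenafil against TAC. With PF-04449613 libraries 1 and 4 left out together, 4 of the 38 subunit rows had an unadjusted p under 0.05, and none was called by edgeR. The share of all genes at that p was 15.9% there and 14.6% with all libraries. These 2 comparisons share the TAC libraries, so the values are given side by side and are not 2 independent readings.

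The inhibitors compared with each other gave 0 of 45 members called (edgeR; 0.00707% of all genes), 0 at an unadjusted p under 0.05 (1472 of the 14135 genes), and 0 by DESeq2 or limma-voom. The median of sildenafil minus PF-04449613 was -0.02. Ndufa13 had the lowest p, at 326, 334, 307, 294 and 326 CPM with sildenafil and from 275 over a median of 349 to 422 CPM with PF-04449613. The sildenafil values lay inside the other group's range, and the log2 difference was -0.12 (SE 0.106, edgeR adjusted p = 0.717), with an interval from -0.33 to 0.09. Standard errors of 0.0809 to 0.141 over the members set the size of difference that these groups could resolve, and a p that misses the threshold does not show that the drugs act alike.

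Against sham, sildenafil-treated TAC hearts still had lower subunit transcripts. Of 38 subunit rows 18 fell, where 7.80% of all genes were called lower, and Ndufaf4 fell as the sole assembly factor (-0.44, SE 0.119, edgeR adjusted p = 0.0227). All 36 complex I subunits were below 0, with a median of -0.37. For 27 subunit rows and Ndufaf4 every treated library was below every sham library, against 8.75% of all genes. Members called in this comparison included the core subunits Ndufs1 (-0.42) and Ndufv1, the accessory subunits Ndufa5 (-0.49) and Ndufa13 (-0.43), and Ndufa4 (-0.43). The core subunits Ndufv2, Ndufs3, Ndufs7 and Ndufs8 were not called. The sildenafil libraries held 9729, 10237, 9056, 8522 and 9205 CPM in the summed subunits, all below the lowest sham library. This also held for sildenafil libraries 1 and 2, in which Myh7, the myosin heavy chain that rises under overload, stood at 380.1 and 419.8 CPM, close to the sham range of 198 to 326 CPM and far from the 2783 to 8670 CPM of TAC.

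These calls depended on single libraries and on the ear tag range. With the range of ear tag numbers as a term in the model, 0 subunits and 0 factors were called in sildenafil against sham: sham tags ran from 165 to 189 in 3 animals and were 606 and 608 in the other 2, while all 5 sildenafil tags lay between 533 and 697. Without sildenafil library 4 no subunit row was called, where 1.87% of all genes were called lower. Without sildenafil library 3 or sham library 1, 1 row was called (3.06% and 3.20% of all genes). Leaving out sildenafil library 5, sham library 3 or sham library 4 gave 2 rows (3.58%, 3.95% and 3.81%). There were 4 rows without sham library 2 (4.14%) and 10 without sildenafil library 1 (6.82%). The share of all genes called lower ranged from 1.87% (without sildenafil library 4) to 7.98% (without sildenafil library 2) as single libraries were left out, and was 1.66% with the tag term. The labels do not say what the tag ranges stand for. In TAC against sham, where both ranges occur in both groups, all 36 subunits were below 0 within each range, with a median of -0.32 in the low range (2 TAC and 3 sham animals) and -0.47 in the high range (3 and 2).

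Against sham, PF-04449613-treated TAC hearts gave 0 of 38 subunit rows called by edgeR, where 1.65% of all genes were called lower, although 34 of the 38 had an unadjusted p under 0.05, as did 3849 of the 14135 genes. DESeq2 called 10 and limma-voom 0, where 4.56% and 1.28% of all genes were called lower. All 36 complex I subunits were below 0, with a median of -0.31, and Ndufa1 was the sole subunit without overlap, as 1.87% of all genes were. Ndufaf4 fell (-0.49, SE 0.113, edgeR adjusted p = 0.0298). It stood at 46.7 CPM in the lowest library, a median of 57.9 and 71.9 CPM in the highest, just under the lowest sham library at 72.5 CPM. That 18 subunit rows were called against sham with sildenafil and 0 with PF-04449613 does not show that the drugs differ, and their direct comparison gave 0 calls. The comparisons with sham share the 5 sham libraries.

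The PF-04449613 animals varied most in summed subunit CPM, with a coefficient of variation of 18.3%, though TAC was close at 16.0%. Some single members varied more in TAC. The summed subunits of PF-04449613 libraries 1 to 6 were 9137, 11211, 7774, 7592, 10695 and 11698 CPM. Libraries 1, 3 and 4 had all 36 subunits below the lowest sham value, while libraries 2, 5 and 6 had 5, 16 and 1. Library 4 was the lowest of the group for 27 subunits and library 6 the highest for 23. The extremes also differed in Myh7, at 4401 CPM in library 4, 9100.1 CPM in library 3 and 432 CPM in library 6. Without library 6, 26 subunit rows were called against sham by edgeR, where 5.66% of all genes were called lower, and without library 2 it was 14, where 4.37% of all genes were. Libraries 1 and 4 had the highest ribosomal shares. Without both, 9 subunit rows had an unadjusted p under 0.05 against sham, and Ndufaf4 was no longer called. The share of all genes at that p also dropped, from 27.2% to 15.9%. The part of the ribosomal share in this was not tested.

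**Figure D5:**
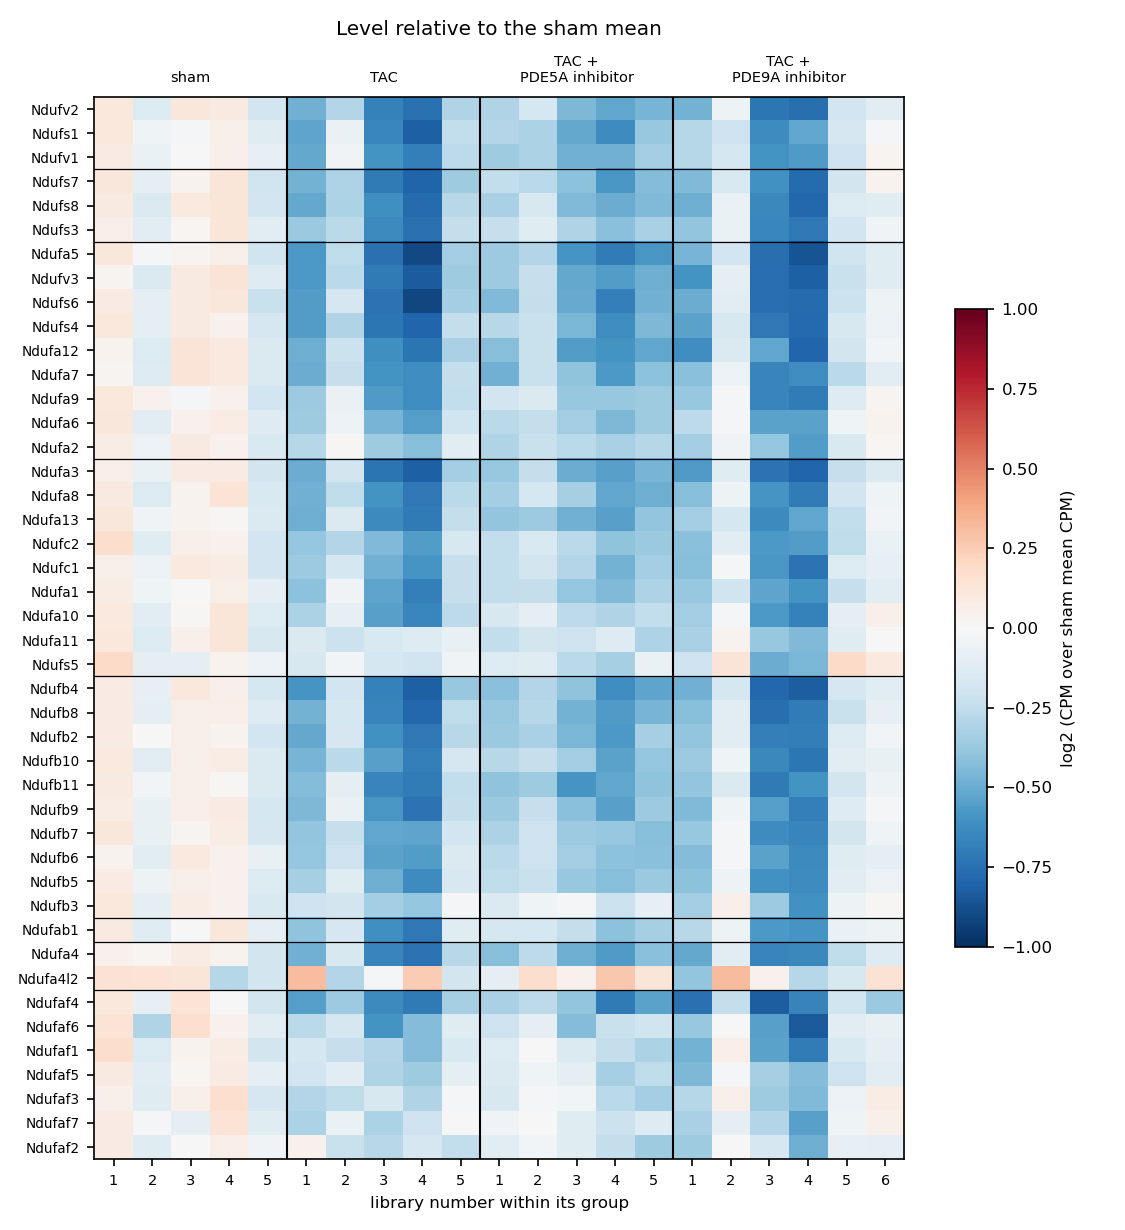
Each member's CPM relative to its sham mean, as a log2 colour scale from -1 (blue) to 1 (red), with genes in rows, grouped by role, and 21 libraries in columns. The columns of TAC libraries 3 and 4 and PF-04449613 libraries 3 and 4 are dark for nearly all subunits, while Ndufs5, Ndufa11 and Ndufa4l2 stay pale in TAC or vary on their own.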

How the data were processed

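Left ventricular RNA of 21 mice was sequenced as stranded total RNA libraries, per the labels' protocols. The authors deposited 1 table of RSEM expected counts per gene symbol, unscaled between libraries, in which 19.0% of values had decimals. Per the submitters' processing notes, the tools were RSEM 1.3.0, HISAT2 2.0.5, CASAVA 1.8.4 and DESeq2 1.18.1 and the build mm10, and neither role nor order is stated. Which annotation supplied the symbols is not stated. A date stood in place of a symbol in 27 rows.

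Expected counts were rounded to whole numbers, filtered with filterByExpr by group (14135 genes left) and scaled by TMM (factors 0.919 to 1.09). In R 4.3.3, edgeR 4.0.16 fitted its quasi-likelihood model to all 21 libraries at once, each group having its own mean, with Benjamini-Hochberg adjustment over all genes tested and a threshold of 0.05. The procedure was tested on simulated data. The unit of replication was the animal. Standard errors and intervals (1.96 standard errors each way) are of the log2 fold change, and "rose" and "fell" are used of genes past the threshold. Alternatives were DESeq2 1.42.0, limma-voom (limma 3.58.1), other scalings, no filter, the compared groups alone, a replicate block, ear tag range as a term, and leaving out libraries. Sums, shares and ratios over members carry no test.

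Positions and transcript lengths come from GENCODE M21 (GRCm38), in which all 45 members matched 1 protein-coding gene; 3 members whose principal transcripts differ in length by more than 1.5 times were left out of levels per kb. Values of every library are given for nuclear core subunits (1 that the rule names is not reported here), Ndufa4 and Ndufa4l2, and the other 3 subunits and 2 assembly factors with the lowest p in TAC against sham. The members, lists and rules were chosen with earlier results of these data known.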

Additional observations from a re-analysis of the deposited data

Results flagged for a closer look

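Ndufa4 in sham library 5 stood at 599.9 CPM, away from the other 4 sham libraries at 691 to 717 CPM. The gap to the nearest library was 0.777 of the group's whole range. Sham library 5 was also the lowest of its group for 32 of the 36 complex I subunits too. Of 72 sets of values examined in this way, 1 stood out, and chance alone sets apart about 1 in 20.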

How the results depend on the processing

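In TAC against sham, the count of subunit rows called was 32 and lay between 29 and 34 under DESeq2, limma-voom, other scalings, no filter, the compared groups alone, the replicate block (34) and the ear tag term. Leaving out single libraries gave 12 to 34. The share of all genes called lower was 13.0% in the main fit, 8.48% to 15.1% under those settings and 5.95% to 15.6% without single libraries. Assembly factors called numbered 1, and 2 with the compared groups alone. All 36 complex I subunits were below 0 in all 18 alternatives. Ndufa4l2, which was not called, ranged from -0.032 to 0.114 without single libraries and was below 0 without sham library 4 (-0.030) or 5 (-0.0061) and without TAC library 1 (-0.032) or 4 (-0.015). In sildenafil against sham, subunit rows called numbered 18, where 7.80% of all genes were called lower. They numbered 28 with DESeq2 (10.4% of all genes) and 11 without TMM (3.96%). With the compared groups alone there were 35 (12.2%), and with the replicate block 29 (10.02%). The ear tag term gave 0 (1.66%), and leaving out single libraries gave 0 to 25 (1.87% to 7.98%). Factors called numbered 1, 0 with the ear tag term and 0 to 1 without single libraries. In PF-04449613 against sham, subunit rows called numbered 0, where 1.65% of all genes were called lower. They numbered 10 with DESeq2 (4.56% of all genes), 32 with the replicate block (8.06%) and 0 to 26 without single libraries (0.0985% to 5.66%). Factors called there numbered 1, 2 with DESeq2, 3 with the replicate block, 0 with the compared groups alone, with the ear tag term or without libraries 1 and 4 together, and 0 to 3 without single libraries. The cause of these moves was not tested. No alternative gave a called member in either inhibitor against TAC or between the inhibitors. The labels do not state that animals with the same number are paired. Of 30 same-numbered pairs 8 correlated above 0.1 in their deviations, all between groups that had TAC, with a range from -0.22 to 0.56 over the 30. Differently numbered pairs were not compared, so these correlations cannot tell whether the numbers mark a shared factor.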
